A study of Mus musculus with 12 samples.

Results

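The pyruvate dehydrogenase complex and the enzymes that switch it on and off were examined in mouse heart through 10 genes, selected by symbol from the 55401 rows of the count table: the subunits Pdha1, Pdhb, Dlat, Dld and Pdhx, the kinases Pdk1, Pdk2 and Pdk4, and the phosphatase subunits Pdp1 and Pdpr. All 10 passed the filter on low counts. The 12 libraries were made from hearts of C57BL/6J mice, wild type and of both sexes, C57BL/6J being the common inbred strain. Each sex had 3 libraries of animals trained by treadmill running (45 min per session at 1 km/h, 5 sessions weekly over 6 weeks) and 3 of sedentary, age-matched animals that were left in their cages. The sources used here do not give the age itself, the time of death or how the hearts were trimmed. Bulk heart RNA was measured, so fewer cells of a type and less RNA per cell cannot be told apart.

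The complex sits in the mitochondrial matrix and turns pyruvate into acetyl-CoA, the step that commits carbon from sugar and lactate to the citric acid cycle. Its E1 enzyme is built from the products of Pdha1 and Pdhb, its E2 core from that of Dlat, and its E3 from that of Dld, which Pdhx tethers to the core. Pyruvate dehydrogenase kinases phosphorylate the E1 alpha subunit and stop the reaction, and the phosphatase restarts it. In the heart, which burns mainly fatty acids, this switch sets how much glucose and lactate is oxidised, and Pdk4 is known as the kinase gene that is induced by fasting, fatty acids and glucocorticoids.

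Total counts ran from 22204349 to 32566240 per library. Rows of the mitochondrial genome held 27.3% of the counts in female sedentary 2 and 0% in the other 11 libraries, and the filter removed them. Heart muscle identity was clear: the 6 cardiomyocyte markers summed to between 55600 and 65200 CPM, the count scaled to a common library depth. Atrial transcripts stood out in female exercised 2 and in female sedentary 1 and 2, with a mean log2 CPM over the atrial markers of 4.57, 4.22 and 3.24 against -0.37 to 1.08 in the other 9. The calls between sedentary hearts and the differences of the subunits that rest on these 3 libraries are given with and without them.

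On GRCm38 the genes lie apart, and Pdha1 is X-linked. By row identifier and coordinates, Pdha1 is ENSMUSG00000031299.10 at chrX:160122209-160138413, Pdhb is ENSMUSG00000021748.9 at chr14:8165996-8173025, and Dlat is ENSMUSG00000000168.9 at chr9:50634633-50659780. Dld is ENSMUSG00000020664.10 at chr12:31331277-31351453 and Pdhx is ENSMUSG00000010914.10 at chr2:103021075-103073513. Of the kinases, Pdk1 is ENSMUSG00000006494.11 at chr2:71873224-71903858, Pdk2 is ENSMUSG00000038967.13 at chr11:95026258-95041354, and Pdk4 is ENSMUSG00000019577.6 at chr6:5483351-5496309. Pdp1 is ENSMUSG00000049225.14 at chr4:11958184-11966452 and Pdpr is ENSMUSG00000033624.10 at chr8:111094630-111137074. Pdk1 and Pdpr are on the plus strand and the other 8 on the minus strand. Exons of Map3k15, on the opposite strand, cover 16.2% of the exonic bases of Pdha1, and exons of 9430091E24Rik cover 3.36% of those of Pdpr. The counting's strand setting is not known, so reads in these stretches cannot be assigned with certainty. Map3k15 itself averaged between 0.944 and 1.52 CPM over the groups, against at least 1003 for Pdha1.

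Upstream sequence is shown for the members that carry the patterns below: Pdhx and Pdpr, the subunit genes with the largest sex differences, and Pdk4, the member that varied most between hearts. The sequences are RefSeq's, build GRCm38.p6, read 5′ to 3′ on the gene's strand and ending before the first base that GENCODE places in the gene. They span chr2:103073514-103073763 on the minus strand for Pdhx, chr8:111094495-111094629 on the plus strand for Pdpr and chr6:5496310-5496528 on the minus strand for Pdk4. Capitals mark matches, on either strand, to the motifs searched.
Pdhx: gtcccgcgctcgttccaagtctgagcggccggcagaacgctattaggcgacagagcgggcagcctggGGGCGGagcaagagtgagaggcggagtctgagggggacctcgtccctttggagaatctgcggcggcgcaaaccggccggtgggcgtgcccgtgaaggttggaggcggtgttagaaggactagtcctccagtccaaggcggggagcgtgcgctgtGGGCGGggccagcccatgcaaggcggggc
Pdpr: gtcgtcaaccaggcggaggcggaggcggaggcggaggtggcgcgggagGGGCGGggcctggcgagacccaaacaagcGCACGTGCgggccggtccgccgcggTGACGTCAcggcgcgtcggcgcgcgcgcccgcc
Pdk4: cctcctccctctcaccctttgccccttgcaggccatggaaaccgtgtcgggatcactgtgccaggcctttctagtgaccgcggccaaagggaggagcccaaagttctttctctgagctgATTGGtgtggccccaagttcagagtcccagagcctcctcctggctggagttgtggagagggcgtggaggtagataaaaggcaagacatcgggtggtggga
The RefSeq table held 9 of the 10 genes, in 11 start windows of 250 bases. Windows of Pdpr and Pdhx were rich in C and G, at 78.4% and 68.4%, with 43 and 24 CpG dinucleotides. That of Pdk4 had 58.8% and 6 CpG, and the median of all 32851 windows was 52.4% and 6. The GC box GGGCGG, present in 32.7% of all windows, matched in those of Pdhb, Dlat, Pdhx, Pdpr and the first of Pdk1. CCAAT, present in 33.9%, matched in those of Pdhb, Dld and Pdk4 and the second of Pdk2. The Pdpr window also held the cyclic AMP element TGACGTCA, found in 1.55% of all windows, and the E-box CACGTG (6.02%), which overlaps 2 matches to the hypoxia core ACGTGC (4.92%). The E-box also matched in the second Pdk2 window, and the steroid receptor motif AGAACA (16.1%) in the second of Pdk1. The FOXO site TGTTTAC (3.17% of all windows), the nuclear receptor motif AGGTCA (14.0%) and the longer TCAAGGTCA that contains it (0.387%) were not among these letters in any of the 11 windows, nor were TATAAA (12.4%) or the 10-base NRF1 motif (0.782%). A match is a description of letters and not a binding site.

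Per kilobase of exon, the transcripts of the complex, its kinases and its phosphatase together spanned more than an order of magnitude. In RPKM, the count scaled for depth and exon length, Pdha1 averaged 290.1 ± 17.6 and Pdhb 225.7 ± 15.01 (SD, n = 12). Dld was at 158 ± 14.0 and the E2 core gene Dlat at 108 ± 9.14 RPKM. The E3-binding protein gene Pdhx was far below the core it joins, at 35.4 ± 4.13 RPKM. Among the kinases, Pdk4 was at 147 ± 52.8, Pdk2 at 132 ± 11.6 and Pdk1 at 25.3 ± 2.25 RPKM, and the isoform gene Pdk3, named beside the members, at 0.766 ± 0.161. The phosphatase genes were low: Pdpr, the regulatory subunit that restrains the enzyme, was at 8.54 ± 2.08, the catalytic Pdp1 at 7.68 ± 0.886 and its isoform Pdp2 at 5.21 ± 0.990 RPKM. In this order, Pdha1 lay above Pdhb, Pdhb above Dld, Dlat above Pdhx and Pdk1 above Pdpr without overlap of the libraries. Pdk4 could not be placed against its neighbours, since Dld was above it in 6 of 12 libraries and it was above Pdk2 in 6 of 12. Pdpr was above Pdp1 in 8 of 12, so this pair was not separated either. Lengths are those of the union of all annotated exons, which understates the level of genes with long rare exons.

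**Figure D1:**
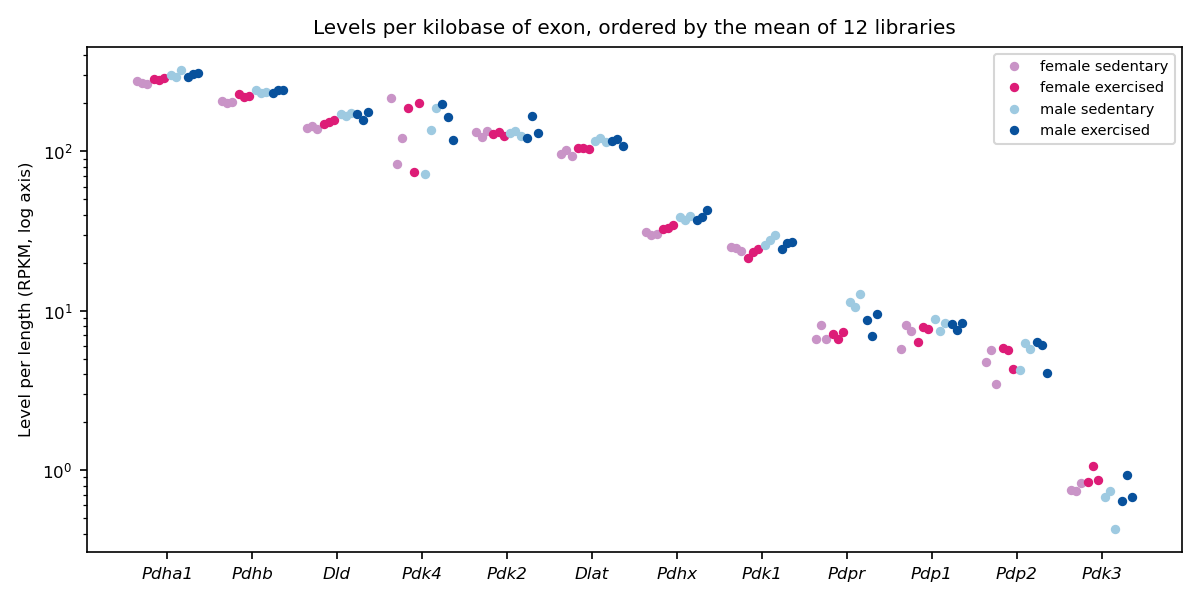
Level per kilobase of exon (RPKM, log axis) of the 10 members and of the isoform genes Pdk3 and Pdp2, with 1 point per library coloured by group and genes ordered by their mean over 12 libraries. Pdk4 spread from 72.5 to 217 RPKM, across the levels of Pdk2 and Dld.

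Subunit transcripts were lower in sedentary females than in sedentary males. Of the 10 members 5 passed edgeR's quasi-likelihood test, all lower in females: Pdhb, Dlat, Dld, Pdhx and Pdpr. Over all 16213 genes tested, 2.21% were called in this comparison and 1.36% on the lower side. DESeq2 called Pdha1 besides these 5, where it called 5.97% of the genes it adjusted. The median log2 difference of the 10 was -0.21 and that of the 5 subunits -0.28, against 0.01 for all genes tested. In 7 of 10 members the libraries of the sexes did not overlap, all lower in females, where 12.8% of all genes did so.

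Pdhx had the largest difference of the subunits. It stood at 122, 117 and 119 CPM in female sedentary 1, 2 and 3 and at 153, 146 and 153 CPM in male sedentary 1, 2 and 3. Every female library was below every male one. The log2 difference was -0.34 ± 0.07 (SE, edgeR adjusted p = 0.0189), a level lower by 20.8% in the females. Exercised hearts had 128, 129.7 and 135 CPM in females and 145, 151 and 169 CPM in males, again without overlap, at -0.24 ± 0.07 (edgeR adjusted p = 0.222).

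Dld, the E3 that regenerates the lipoyl groups of the core and is shared with the related 2-oxoacid dehydrogenases, was at 515, 528 and 507 CPM in the sedentary females and at 629, 612 and 644 CPM in the sedentary males. The groups were apart, by -0.28 ± 0.06 on the log2 scale (edgeR adjusted p = 0.0285). In exercised hearts it was at 549, 559.7 and 581 CPM in females and at 635, 581 and 652 CPM in males. The nearest pair was female exercised 3 at 580.7 and male exercised 2 at 580.9 CPM, so these groups only just failed to overlap (-0.14 ± 0.06, edgeR adjusted p = 0.433).

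Dlat, the acetyltransferase core, was at 466, 494 and 455 CPM in sedentary females and at 568, 593 and 555 CPM in sedentary males. It differed by -0.28 ± 0.06 (edgeR adjusted p = 0.0309). Exercised females lay close together, at 509, 509.6 and 507 CPM, below the exercised males at 567, 579 and 527 CPM. That difference, -0.13 ± 0.06, did not pass (edgeR adjusted p = 0.490).

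The E1 subunits differed least. Pdhb was at 802, 773 and 792 CPM in sedentary females and at 939.6, 894 and 914 CPM in sedentary males, with no overlap and a log2 difference of -0.22 ± 0.05 (edgeR adjusted p = 0.0489). Pdha1, which carries the serines that the kinases phosphorylate, was at 1024, 1004 and 982 CPM against 1117, 1093 and 1208 CPM. Its libraries were apart too, but at -0.18 ± 0.06 it missed the threshold (edgeR adjusted p = 0.105). In exercised hearts Pdhb was at 877, 847 and 858 CPM in females and 896, 930 and 937 CPM in males, and Pdha1 at 1054, 1049 and 1075 against 1099, 1148 and 1148 CPM. Both stood apart by small margins, at -0.10 ± 0.05 and -0.10 ± 0.06.

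Pdpr differed most of all 10. It stood at 33.6, 41.0 and 33.3 CPM in sedentary females and at 57.0, 53.0 and 64.2 CPM in sedentary males. Every female library was far below every male one. The log2 difference was -0.69 ± 0.12 (edgeR adjusted p = 0.00987), or 38.0% lower in females, and by p the gene ranked 61 of 16213. In exercised hearts the sexes overlapped: females had 35.6, 33.4 and 36.9 CPM and males 44.0, 34.9 and 48.0 CPM (-0.26 ± 0.12, edgeR adjusted p = 0.483).

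The kinase genes and Pdp1 were not called between the sexes. Pdk1, the kinase induced by hypoxia, ranged from 185 to 194 CPM in sedentary females and from 202 to 233 CPM in sedentary males, apart but at -0.19 ± 0.07 (edgeR adjusted p = 0.191). Pdk2, a widely expressed kinase, had 389.7 to 421 CPM in females and 392 to 421 CPM in males, a log2 difference of 0.00 ± 0.09. Pdp1 overlapped, with 25.8 to 36.7 against 33.4 to 39.8 CPM (-0.20 ± 0.12). Beside the members, Pdk3 was at 0.32 ± 0.25 and Pdp2 at -0.22 ± 0.23. Pdk4 overlapped fully, at 0.09 ± 0.52, with an error many times that of the subunits. In exercised hearts 0 of 10 members passed edgeR's test, where 0.160% of all genes did. There 5 of 10 had an unadjusted p under 0.05, against 9.84% of all genes, and DESeq2 called 1, Pdhx, where it called 167 (1.15%) of the 14515 genes it adjusted, while limma's voom called 0. All 10 log2 differences were below 0, with a median of -0.14 against 0.00 for all genes. The 5 subunits were each apart and lower in females, where 7.54% of all genes were. Smooth muscle markers (3 of 3 tested) summed to 137 to 217 CPM in exercised females and 62.6 to 84.7 CPM in exercised males. Macrophage markers (4 of 4 tested) summed to 103 to 109 against 75.9 to 99.8 CPM. Among the macrophage markers C1qa and C1qb were apart and higher in the females, while Cd68 overlapped. Adgre1 overlapped with a lower mean in the females, 13.4 against 14.1 CPM. The 4 endothelial markers, all tested, did not overlap as a sum either. That sum was lower in the females, at 707 to 812 against 819 to 844 CPM. Of its genes Kdr and Tie1 were apart and lower in the females, and Cdh5 overlapped. Pecam1 went the other way, at 195.2 to 224.7 CPM in exercised females against 190.2 to 194.6 CPM in exercised males. The part of these markers in the differences was not tested. Without the 3 libraries with atrial transcripts, of which female exercised 2 enters here, the subunits were at -0.09 (Pdha1), -0.09 (Pdhb), -0.14 (Dlat), -0.14 (Dld) and -0.24 (Pdhx), with 0 called. Whether the sex difference itself changed with exercise is the test of the difference of the exercise effects, given below, which called 0.

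**Figure D2:**
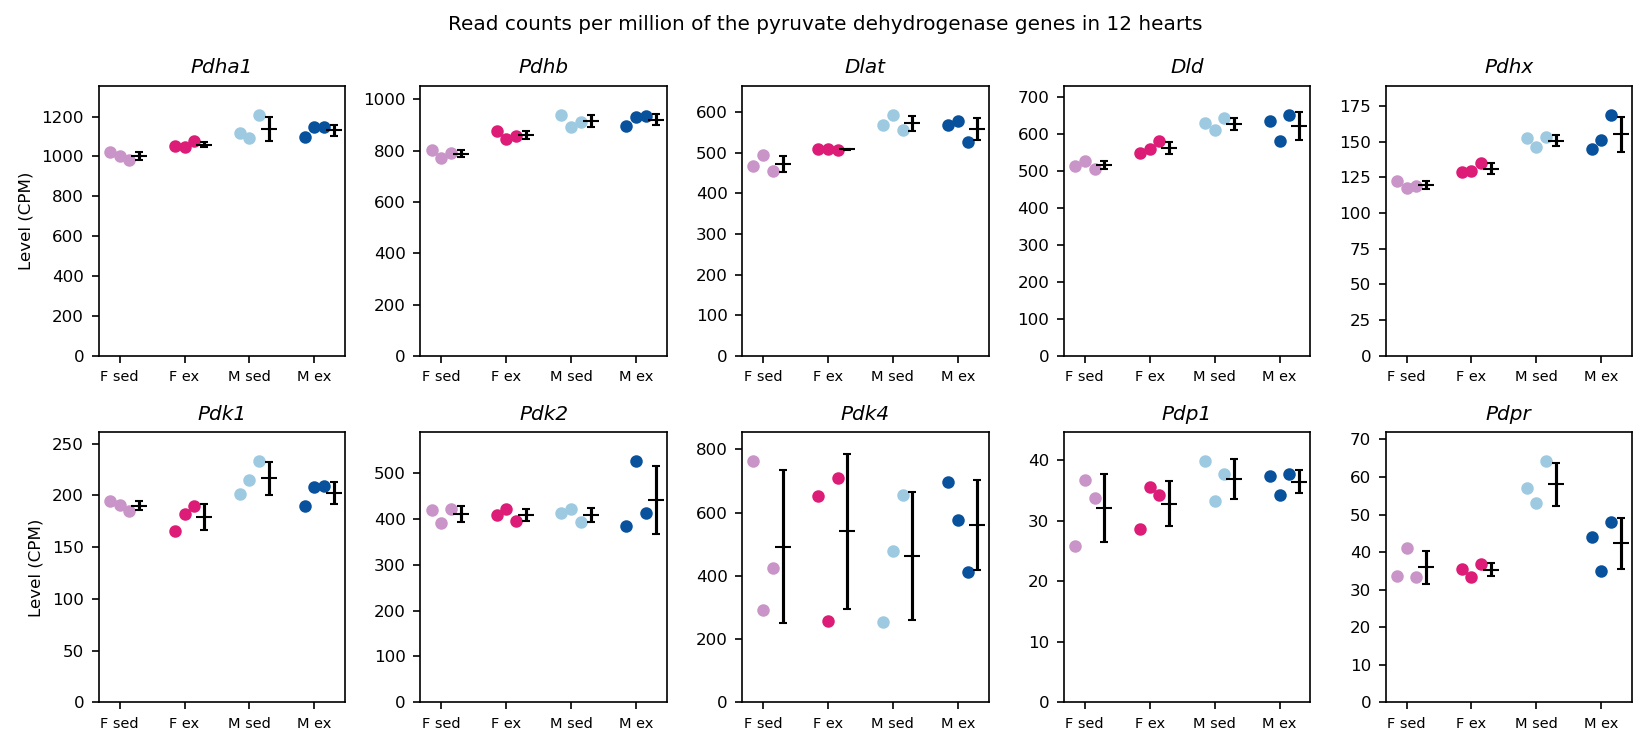
Level in CPM of each member (1 panel per gene, axis from 0) for female sedentary (F sed), female exercised (F ex), male sedentary (M sed) and male exercised (M ex) libraries, with the 3 libraries as points and the mean ± SD as a bar. The 5 subunits are lowest in sedentary females, Pdpr is highest in sedentary males at 53.0 to 64.2 CPM, and Pdk4 spreads over every group.

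The calls between sedentary hearts lay close to the threshold, while directions and sizes held. Over the fits that each left out 1 library, the number of members called ran from 0 to 5: it was 0 without female sedentary 1 or male sedentary 3, 1 without female sedentary 2 or 3 or male sedentary 1, 2 without male sedentary 2, 3 without female exercised 1 or 2, 4 without female exercised 3 or male exercised 1 or 3, and 5 without male exercised 2. Pdpr lost its call without female sedentary 1 (edgeR adjusted p = 0.0522) or male sedentary 3 (edgeR adjusted p = 0.0659). Pdhx lost it without female sedentary 1, 2 or 3 or male sedentary 1 or 3, with an edgeR adjusted p from 0.0623 to 0.085. Dld lost it without any 1 of the 6 libraries compared (0.0515 to 0.112), and so did Dlat (0.0571 to 0.108), which also lost it without female exercised 1 or 2 (0.0528 and 0.0525). Pdhb kept its call only without male exercised 2 (0.0448). Over the same fits the log2 differences stayed between -0.80 and -0.61 for Pdpr, -0.36 and -0.32 for Pdhx, -0.30 and -0.26 for Dld, -0.31 and -0.25 for Dlat and -0.23 and -0.20 for Pdhb.

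Other transcripts moved with this comparison. The 6 cardiomyocyte markers, all tested, summed to 55600 to 57700 CPM in sedentary females and 58700 to 65200 in sedentary males, without overlap. Between these groups Tnnt2, Actc1, Myl3 and Ryr2 were apart and lower in the females, while Myh6, the largest part of the sum, and Myl2 overlapped. In exercised females and males the sums were 57500 to 58400 against 56600 to 64100 CPM. The 5 atrial markers (4 tested) summed to 251 to 387 CPM in sedentary females and 54.1 to 136 in sedentary males. Bmp10 was at 0 in all 3 of those females. Most of the sum was Nppa, at 195.9 to 248.5 CPM in the females and 52.1 to 132.5 CPM in the males. In female sedentary 3 the sum was almost wholly Nppa, with Myl7, Sln and Myl4 at 0.972, 0 and 1.06 CPM. The 5 erythroid markers summed to 34.6 to 3630 CPM in the females and 8.26 to 43.6 in the males, and 5 fat cell markers (3 tested) to 0.707 to 12.1 against 0.453 to 0.550 CPM. The part of these in the sex difference was not tested marker by marker. With the atrial score as a covariate, 0 members were called, and the differences were -0.67 for Pdpr, -0.33 for Pdhx, -0.28 for Dld, -0.30 for Dlat and -0.20 for Pdhb. Without the 3 libraries with atrial transcripts, which leaves 1 sedentary female whose spread is assumed to be that of the other groups, 0 were called and they were -0.80, -0.34, -0.31, -0.33 and -0.21.

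**Figure D3:**
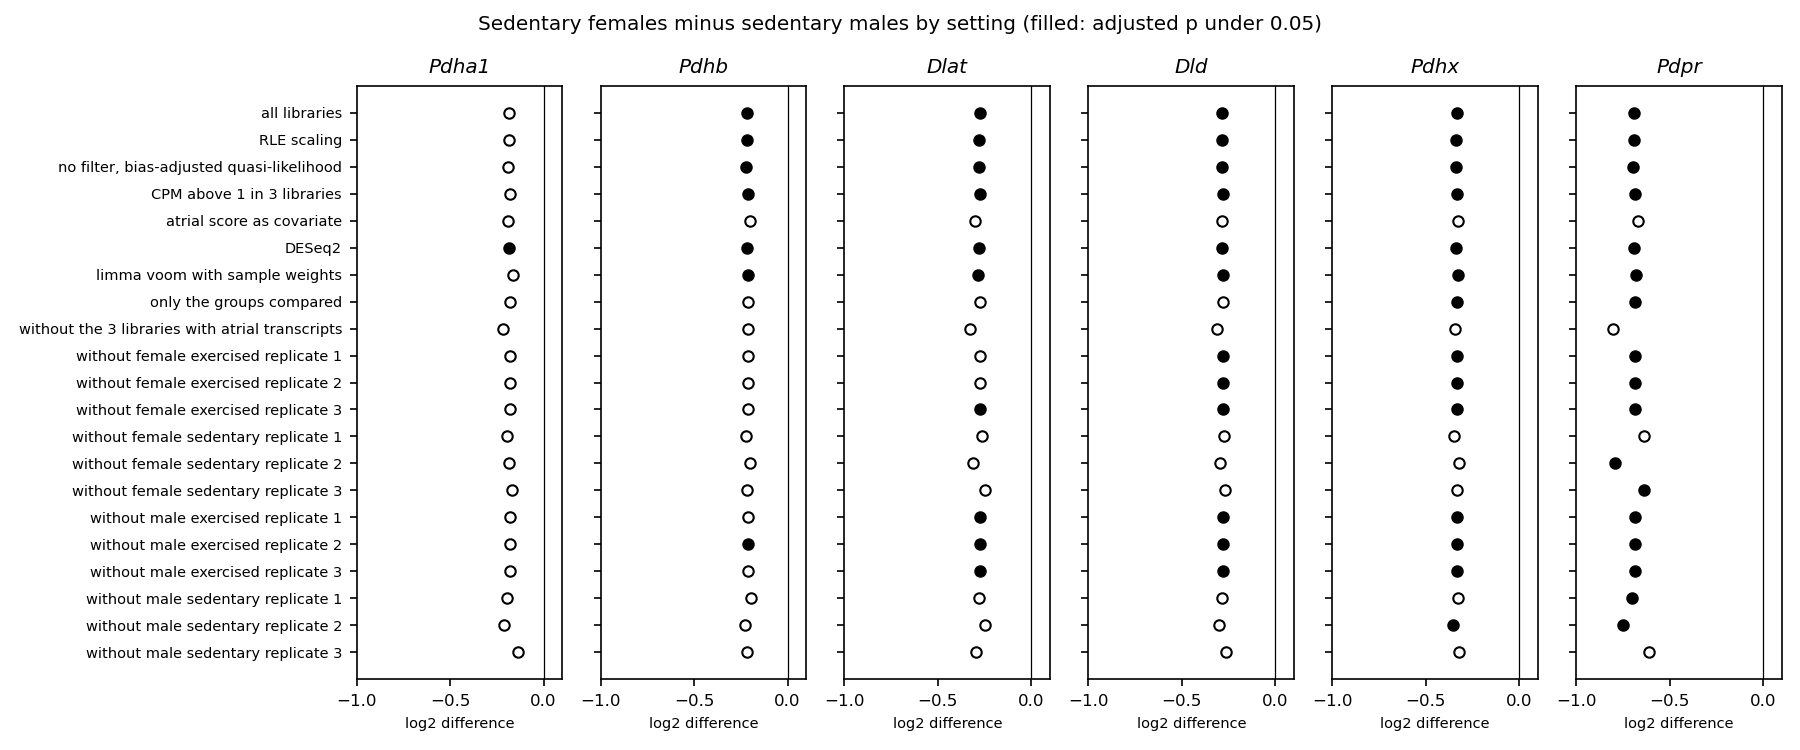
Log2 difference of sedentary females minus sedentary males for the 5 subunit genes and Pdpr (1 panel per gene) under each processing setting and with each library left out, filled where the adjusted p is under 0.05. All points lie below 0, and filled points thin out where a library of the 6 compared is left out.

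Genes of the sister complexes use the same lipoyl chemistry, and the oxoglutarate and branched-chain complexes share Dld. Of 9 tested between sedentary hearts, 8 were below 0 in females (median -0.25) and 3 were called. Over all 16213 genes tested, 7717 were below 0 (median 0.01) and 2.21% were called. Ogdhl, a variant of the oxoglutarate dehydrogenase E1, stood at 126 ± 13.0 CPM in sedentary females and 230 ± 13.2 in sedentary males (SD, n = 3), a log2 difference of -0.86 ± 0.10 (edgeR adjusted p = 0.000608). Dbt, the core of the branched-chain complex, was at 71.1 ± 1.55 against 93.2 ± 2.97 CPM (-0.39 ± 0.06, edgeR adjusted p = 0.00819), and Dlst, the core of the oxoglutarate complex, at 566 ± 12.03 against 702.5 ± 8.38 CPM (-0.31 ± 0.05, edgeR adjusted p = 0.009). With the atrial score as a covariate Ogdhl was still called, at -0.83 (edgeR adjusted p = 0.0131), while Dbt and Dlst were not, at -0.37 and -0.32 (edgeR adjusted p = 0.0716 and 0.0622). Without the 3 libraries with atrial transcripts 0 of these 3 were called, at -0.82, -0.42 and -0.33 (edgeR adjusted p = 0.0769, 0.184 and 0.230). Dlst also lost its call without female sedentary 1 (edgeR adjusted p = 0.0522). In exercised hearts 0 of the 9 were called and all were below 0 (median -0.14), where 7980 of all 16213 genes were below 0. There Ogdhl was at -0.46 ± 0.10 and Bckdha, the branched-chain E1 alpha, at -0.28 ± 0.06 (edgeR adjusted p = 0.123 and 0.127).

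Of 12 genes that bring pyruvate in or send it elsewhere, 10 were below 0 in sedentary females (median -0.11), where 7717 of all 16213 genes were. The 1 called, where 2.21% of all genes were, was Gpt, an alanine transaminase. It was at 34.4 ± 2.18 against 45.9 ± 2.21 CPM (SD, n = 3, -0.42 ± 0.10, edgeR adjusted p = 0.0456). Its call was lost with the atrial covariate, at -0.46, and without the 3 libraries with atrial transcripts, at -0.44 (edgeR adjusted p = 0.122 and 0.320). It was also lost without any 1 of the 6 libraries compared or female exercised 1 or 2, with a log2 difference from -0.47 to -0.37 and an edgeR adjusted p of up to 0.147 over the fits without 1 library. Me1, the cytosolic malic enzyme, and Pkm, a pyruvate kinase, were at -0.38 ± 0.10 and -0.23 ± 0.06 (edgeR adjusted p = 0.057 and 0.0679). Mpc1, a subunit of the mitochondrial pyruvate carrier, was at -0.25 ± 0.09 in sedentary and -0.28 ± 0.09 in exercised hearts. The cofactor list split evenly: of 14 genes of lipoate and thiamine supply 8 were above 0 and 6 below, with 0 called and a median of 0.01. Its smallest p belonged to Oxsm, Ndufab1 and Lias, which act in mitochondrial fatty acid and lipoate synthesis, at -0.27 ± 0.08, -0.22 ± 0.07 and -0.16 ± 0.06. In exercised hearts 0 of either list were called.

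In females 0 of the 10 members passed the test for exercise. Over all 16213 genes 0 (0%) were called by edgeR, with 637 (3.93%) at an unadjusted p under 0.05, while limma's voom called 0 and DESeq2 1. Of the members only Pdhb had an unadjusted p under 0.05. The level of each of the 5 subunits was higher in all 3 exercised than in all 3 sedentary females, a separation that 5.42% of all genes showed on that side. The log2 differences were 0.08 ± 0.06 for Pdha1, 0.13 ± 0.05 for Pdhb, 0.11 ± 0.06 for Dlat, 0.13 ± 0.06 for Dld and 0.13 ± 0.07 for Pdhx, each with an edgeR adjusted p of 1. The median of these 5 was 0.13, against 0.00 for all genes. Group means in CPM were 1059 ± 13.8 in exercised and 1003 ± 21.2 in sedentary females for Pdha1, 860.4 ± 15.2 and 789 ± 14.96 for Pdhb, and 131 ± 3.56 and 119 ± 2.62 for Pdhx (SD, n = 3). The sedentary females are the same libraries that enter the sex comparison, so the higher value against them here and the lower value against males there are not separate observations. The cardiomyocyte markers summed to 57500 to 58400 CPM in exercised and 55600 to 57700 CPM in sedentary females, and their part in this was not tested.

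The other members overlapped between exercised and sedentary females. Pdpr was at 35.3 ± 1.76 and 36.0 ± 4.38 CPM (SD, n = 3; -0.03 ± 0.12), Pdp1 at 32.9 ± 3.71 and 32.1 ± 5.64 CPM (0.03 ± 0.12) and Pdk2 at 407.5 ± 13.1 and 409.6 ± 17.3 CPM (-0.01 ± 0.09). Pdk1 was at 179 ± 12.4 and 190.2 ± 4.48 CPM, a difference of -0.09 ± 0.07. Without the 3 libraries with atrial transcripts, where 2 exercised females meet 1 sedentary one, the subunits were at 0.12, 0.13, 0.16, 0.16 and 0.15 in the order Pdha1, Pdhb, Dlat, Dld and Pdhx.

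The neighbouring lists in females gave 0 calls as well. Of the 12 pyruvate supply genes 11 were above 0 (median 0.08), with Gpt2 at 0.35 ± 0.11, Me1 at 0.30 ± 0.10 and Gpt at 0.26 ± 0.10, a mitochondrial transaminase, the malic enzyme and the cytosolic transaminase described above. Of the 9 sister complex genes 8 were above 0 (median 0.10), Dlst at 0.13 ± 0.05. Of the 14 cofactor genes 9 were above 0 (median 0.03), Oxsm at 0.24 ± 0.08. These values stand beside 8115 of 16213 above 0 and a median of 0.00 for all genes. The sedentary females are again shared with the sex comparison.

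In males the subunits showed no such separation. All 5 overlapped between exercised and sedentary hearts, with log2 differences from -0.04 to 0.04 and a median of -0.01. Over all genes 0 (0%) were called by edgeR, with 1271 (7.84%) at an unadjusted p under 0.05. Limma's voom called 0 and DESeq2 25, none of them a member.

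Pdpr was the 1 member whose male groups did not overlap. The 3 exercised males, at 44.0, 34.9 and 48.0 CPM, lay below the 3 sedentary ones, at 57.0, 53.0 and 64.2 CPM. In that direction 6.16% of all genes were apart. Over all 16213 genes, 1001 were apart with exercised males higher and 998 with exercised males lower. Against these counts for both directions, 1 member apart does not stand out. The log2 difference of Pdpr was -0.45 ± 0.12, with an unadjusted edgeR p of 0.00152, rank 33 of 16213. Its edgeR adjusted p was 0.567, so it did not pass. The mean of the exercised males, 42.3 CPM, lay between that of the sedentary males, 58.1, and those of the females, 36.0 and 35.3 CPM. The sedentary males are the same libraries that enter the sex comparison. The lower Pdpr of exercised males here and of sedentary females there are therefore not separate observations. Endothelial markers (4 of 4 tested) summed to 819 to 844 CPM in exercised and 761 to 790 CPM in sedentary males, and smooth muscle markers to 62.6 to 84.7 against 101 to 126 CPM; their part in the Pdpr difference was not tested. Pdk1 was at 202 ± 10.9 in exercised and 216 ± 15.6 CPM in sedentary males (SD, n = 3; -0.10 ± 0.07), and Pdp1 at 36.5 ± 1.92 and 37.0 ± 3.30 CPM. Pdk2 had 1 high library, male exercised 2 at 525 CPM, against 383 to 421 CPM in the other 11, and differed by 0.11 ± 0.09 with it and by -0.04 without it. Of the other lists in males, 7 of 12 pyruvate supply, 8 of 14 cofactor and 5 of 9 sister complex genes were above 0, with 0 called by edgeR. Among these, Dbt was at -0.19 ± 0.06, Mpc2 of the pyruvate carrier at 0.20 ± 0.09 and the lipoate genes Lipt1 and Lipt2 at 0.31 ± 0.13 and 0.39 ± 0.17.

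The difference of the exercise effects between the sexes was tested in the same model and called 0 of 10 members and 0 (0%) of all genes, with 769 (4.74%) at an unadjusted p under 0.05. Limma's voom called 0 and DESeq2 10, none of them a member. Pdpr had the smallest p among the members, at 0.43 ± 0.16 (unadjusted p = 0.0206, edgeR adjusted p = 0.93). The 5 subunits were between 0.09 and 0.14, each with an SE of 0.07 to 0.09. So the separation seen in females and not in males is not shown to differ between the sexes. As an average over both sexes 0 members (0% of all genes) passed edgeR's test, 1 had an unadjusted p under 0.05 against 6.28% of all genes, voom called 0 genes and DESeq2 14, none a member. That 1 was Pdpr at -0.24 ± 0.08 (edgeR adjusted p = 0.782), and Pdk1 was at -0.09 ± 0.05 and Pdhx at 0.09 ± 0.05.

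**Figure D4:**
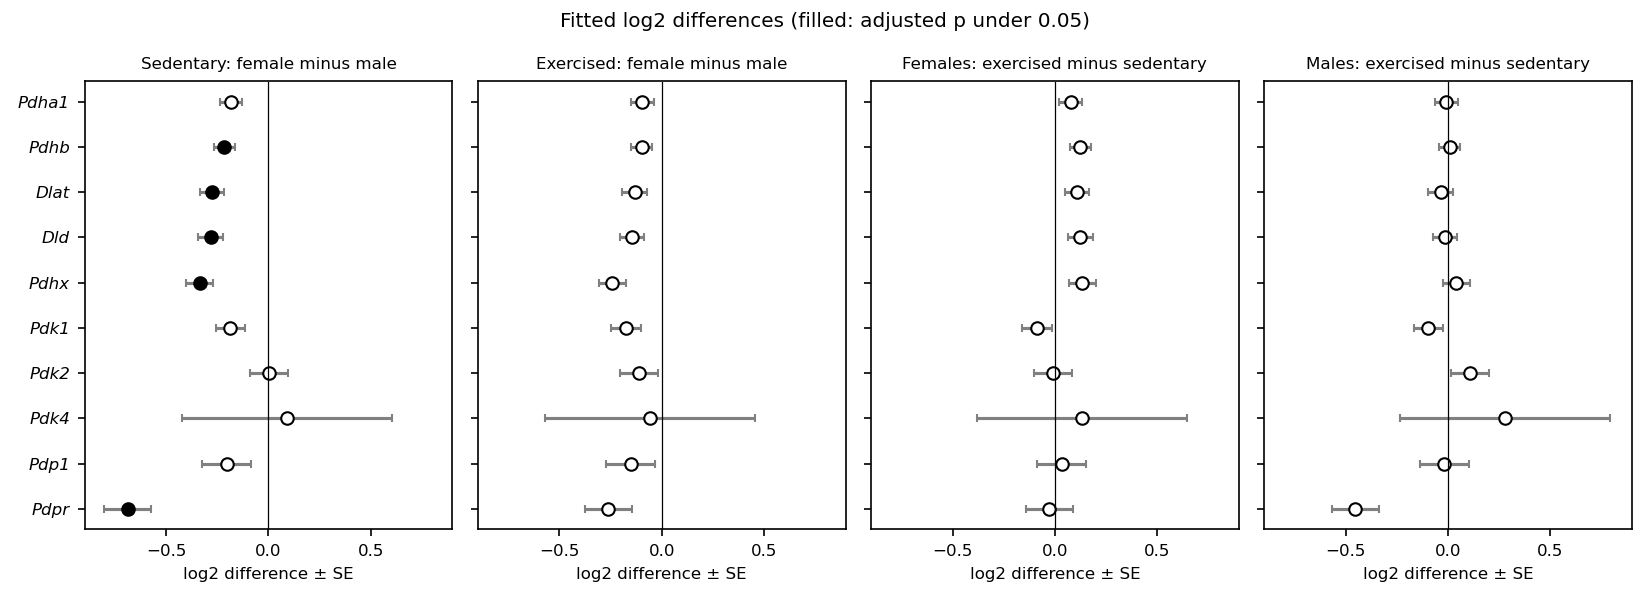
Fitted log2 difference ± SE of each member in 4 comparisons: females minus males in sedentary and in exercised hearts, and exercised minus sedentary in females and in males, filled where the edgeR adjusted p is under 0.05. Pdhb, Dlat, Dld, Pdhx and Pdpr are filled in the sedentary comparison, no other point is, and Pdk4 has an SE of 0.52 in the sedentary sex comparison.

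Pdk4 varied widely between hearts of the same group, so differences between groups could not be estimated closely. In female sedentary 1, 2 and 3 it stood at 762, 292 and 425 CPM, and in female exercised 1, 2 and 3 at 654, 259 and 709 CPM. In males it was at 254, 478 and 657 CPM in the sedentary and at 697, 576 and 413 CPM in the exercised libraries. Libraries spread widely within each group, least in the exercised males. Over all 12 libraries the highest was 2.995 times the lowest. For the other members this ratio ran from 1.22 for Pdhb to 1.93 for Pdpr.

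The SD of log2 CPM within groups was 0.67 for Pdk4, the 12th largest among the 1450 genes with a mean above 100 CPM, whose median was 0.10. It was 0.03 for Pdhb and at most 0.06 for the 5 subunits, which ranked 1432 (Pdhb), 1362 (Pdha1), 1299 (Dlat), 1289 (Dld) and 1155 (Pdhx) among the same 1450 genes, with 1 as the most variable. Pdk4 differed between exercised and sedentary hearts by 0.13 ± 0.52 in females and 0.28 ± 0.52 in males, with errors larger than the differences. Without female sedentary 1 or 2 the value in females became 0.59 or -0.14, and without male sedentary 1 or 3 that in males -0.01 or 0.62.

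The make-up of the kinase transcripts followed Pdk4. Per length, Pdk4 held between 31.6% (male sedentary 1) and 57.9% (female sedentary 1) of the summed level of the 4 kinase genes, Pdk2 between 35.2% and 57.5%, and Pdk1 between 6.31% and 11.3%. Pdk3 held at most 0.460%. Pdk4 exceeded Pdk2 per length in 6 libraries, spread over all 4 groups: 2 exercised females and 1 sedentary female, 1 exercised male and 2 sedentary males. The kinase sum ranged from 0.767 to 1.37 times the level of Pdha1.

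**Figure D5:**
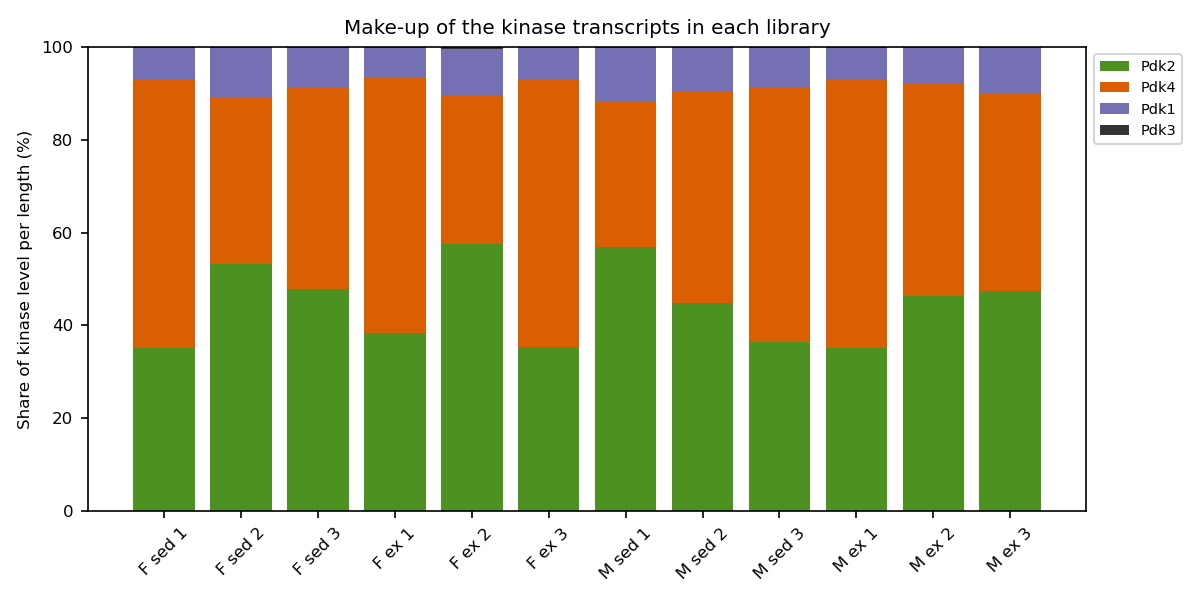
Share of each kinase gene in the summed kinase level per length (%, bars stacked to 100) in the 12 libraries, named by group (F female, M male, sed sedentary, ex exercised) and replicate. The Pdk4 share runs from 31.6% in male sedentary 1 to 57.9% in female sedentary 1, with low and high libraries in each sex.

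The genes whose log2 CPM followed that of Pdk4 most closely over the 12 libraries, by Pearson correlation and as a description only, were Txnip (r = 0.894), Angptl4 (0.825), Uggt2 (0.813), Rbm45 (0.793) and Gm43343 (0.786). All values come from the same libraries, and these 5 are the highest over all other genes tested. Txnip, an inhibitor of thioredoxin and of glucose uptake, was highest at 764 CPM in male exercised 1 and 761 CPM in female exercised 1, and lowest at 482, 515.5 and 517 CPM in male sedentary 1, female exercised 2 and female sedentary 2. Those 3 are also the 3 lowest for Pdk4. Angptl4, a fasting-induced inhibitor of lipoprotein lipase, had its lowest values, 1.92, 2.52 and 3.58 CPM, in the same 3 libraries and its highest, 11.3 CPM, in male exercised 1.

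The same measure gave other neighbours for other members. For Pdk2 these were Pcyt2 (0.962), Habp2 (0.944), Rusc2 (0.907), Dctn1 (0.906) and Dnaja4 (0.899). Apart from male exercised 2, at 525 CPM, Pdk2 stayed between 383 and 421 CPM. How far its correlations rest on that library was not tested. For Pdk1 they were Kif5b (0.966), Chmp4c (0.963), Rock2 (0.948), Snx13 (0.942) and Map4 (0.940). For Pdha1 they included Hspa9 (0.954), the mitochondrial Hsp70, Sucla2 (0.948) of the citric acid cycle, Mtfr1 (0.941) and Psme4 (0.941).

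Of 13 genes known to answer the same fasting and hormone signals as Pdk4, 0 passed edgeR's test in any comparison, and their median for exercise was 0.13 in females and -0.09 in males. Ucp3, a mitochondrial carrier induced by fatty acids, was at 117 CPM in male exercised 1 and between 25.3 and 60.6 CPM in the other 11 libraries. Fkbp5, a glucocorticoid target, had 31.6 to 76.2 CPM in exercised females and 19.4 to 27.1 CPM in exercised males, apart, at 1.16 ± 0.30 (edgeR adjusted p = 0.242). Clock genes, of which Dbp is a strongly rhythmic one, also varied within groups. Dbp ran from 11.3 CPM in male sedentary 1 to 98.4 CPM in male exercised 1, and 82.4 and 67.6 CPM in female exercised 2 and female sedentary 2. So the 3 libraries lowest for Pdk4 held both the lowest and 2 of the 3 highest Dbp levels. The part of time of day and feeding in the Pdk4 levels was not tested.

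Of 11 regulators of Pdk4 transcription 10 were below 0 in sedentary females against males (median -0.15), with 0 called by edgeR. Over all genes 7717 of 16213 were below 0 there (median 0.01). Ppargc1a, the coactivator of mitochondrial genes, stood at 88.8 ± 16.8 in sedentary females, 135 ± 20.01 in sedentary males and 85.2 ± 18.9 CPM in exercised males (SD, n = 3). That is -0.60 ± 0.18 between the sedentary sexes and -0.66 ± 0.18 for exercise in males (edgeR adjusted p = 0.109 and 0.588). Ppara, a fatty acid receptor, was at -0.41 ± 0.13 and -0.50 ± 0.13 in the same comparisons (edgeR adjusted p = 0.120 and 0.567). Like Pdpr, both were apart in these comparisons, highest in the sedentary males. Over all genes, 12.8% were apart on that side between the sedentary sexes and 6.16% for exercise in males. The same sedentary male libraries enter both comparisons, so the separations of a gene in them are not separate observations. Of 9 hypoxia-responsive genes, the setting in which Pdk1 is known to be induced, 0 were called in any comparison by edgeR. Egln3, an oxygen-sensing hydroxylase, had the smallest p between the sedentary sexes, at -0.50 ± 0.13 (edgeR adjusted p = 0.0708).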

How the data were processed

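The deposited table holds raw read counts per Ensembl gene for 12 mouse heart libraries, 1 column each. The submitters' processing notes name, for the authors' pipeline, Trimmomatic 0.36, STAR 2.5.2b and featureCounts of Subread 1.5.2, and genome GRCm38. The annotation release and strand setting are not stated there. Symbols, exon lengths and coordinates came from GENCODE M21 for GRCm38 (55141 of 55401 rows matched).

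The counts went into edgeR 4.0.16 (R 4.3.3): filterByExpr kept 16213 genes, scaling was by trimmed mean of M-values, and 1 group-means model over all 12 libraries (8 residual degrees of freedom) gave 6 contrasts by the robust quasi-likelihood test with Benjamini-Hochberg adjustment at 0.05 over all genes tested. The code was tested on simulated data. Levels are scaled CPM, and RPKM divides by exon-union length. Replicates are taken as separate animals, which the labels do not state. The p-values reflect the spread among libraries, with information on spread shared across genes. Each SE is the size of the log2 difference divided by the square root of the test's F statistic. The p and SE of a gene therefore do not rest on its own libraries alone. No pairing was used.

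Members, gene lists and alternatives were chosen with earlier results of these data known. All members were named, with Pdk3 and Pdp2. From each of 7 other lists the 3 genes of smallest p per comparison and any called gene could be named, and for 4 members the 5 genes most alike, of which 1 is not reported here. Alternatives used limma 3.58.1 (voom with sample weights, called voom here) and DESeq2 1.42.0. Further alternatives were RLE scaling, other filters, an adjusted p of 0.1, only the groups compared, an atrial covariate, and libraries left out.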

Additional observations from a re-analysis of the deposited data

How the results depend on the processing

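Between sedentary hearts, edgeR called 5 members and 358 genes. The counts were 0 and 78 with the atrial score as a covariate, and 0 and 14 without the 3 libraries with atrial transcripts, where fewer samples were fitted. Fitting only the groups compared called 2 members, Pdhx and Pdpr. DESeq2 called 6 members, the further one being Pdha1, and 866 genes, and an adjusted p of 0.1 gave 816 as the count of all genes called in the comparison of sex in sedentary hearts. With 1 library left out, 0 to 5 members and 68 to 462 genes were called: fewer by over 1.5 times without any 1 of the 6 libraries compared or female exercised 1 or 2, and lowest without male sedentary 3. Between exercised hearts, 26 genes were called, against 41 at an adjusted p of 0.1, 43 with no filter, 167 with DESeq2, 15 with only the groups compared and 17 (without male exercised 3) to 55 (without male exercised 1) with 1 library left out. DESeq2 called 1 member there, Pdhx at -0.25. For exercise, edgeR called 0 genes in each comparison, and DESeq2 called 1 in females, 25 in males, 10 for the difference of the effects and 14 on average. Leaving out 1 library gave 1 gene in females (without female exercised 3 or female sedentary 3), for the difference (without female exercised 3) and on average (without male exercised 3), and 0 otherwise. The cause of these changes was not tested otherwise. Of the member values, 637 kept direction and call with 1 library left out, 32 lost the call and 51 changed sign, and over the other settings 490 kept both, 13 lost the call, 2 gained it and 15 changed sign. None of the 5 called differences changed sign.

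Sign changes were of values not past the threshold. Without the 3 atrial libraries, exercise in females became -0.10 for Pdp1 and 0.124 for Pdpr, the difference of the effects 0.403 for Pdk4 and -0.0811 for Pdp1, the average effect -0.0596 for Pdp1, and the sex difference of Pdk4 -0.126 in sedentary and 0.277 in exercised hearts, the last being 0.084 with the atrial covariate. With voom, exercise in males became 0.00628 for Dld and 0.00207 for Pdp1, and the difference of the effects -0.0215 for Pdk1. Pdk2 between sedentary hearts became -0.000506 with no filter, -0.0106 with the covariate, -0.000318 with DESeq2 and -0.00045 with voom. With 1 library left out, exercise in females ranged from -0.135 to 0.592 for Pdk4, -0.105 to 0.142 for Pdp1, -0.0783 to 0.0788 for Pdpr and -0.0422 to 0.0142 for Pdk2. Exercise in males ranged from -0.04 to 0.0317 for Pdha1, -0.0107 to 0.0274 for Pdhb, -0.0647 to 0.000789 for Dlat, -0.0504 to 0.0339 for Dld, -0.0256 to 0.0856 for Pdhx, -0.0363 to 0.198 for Pdk2, -0.0137 to 0.616 for Pdk4 and -0.09 to 0.0387 for Pdp1. The difference of the effects ranged from -0.0449 to 0.0615 for Pdk1, -0.207 to 0.0271 for Pdk2, -0.484 to 0.313 for Pdk4 and -0.0846 to 0.161 for Pdp1, and the average effect from -0.0629 to 0.0614 for Pdp1 and -0.0227 to 0.0943 for Pdk2. The sex difference ranged in sedentary hearts from -0.0237 to 0.0382 for Pdk2 and -0.366 to 0.430 for Pdk4, and in exercised hearts from -0.201 to 0.0335 for Pdk2 and -0.298 to 0.281 for Pdk4. No paired analysis was possible because the labels number no replicates. Fits of only the groups compared were not run for the difference and the average of the exercise effects, which use all 4 groups. The lowest read count of any member in a library was 686, for Pdp1 in female sedentary 1. How far counting error and the number of libraries each limit the precision was not tested.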
